A study of Mus musculus with 8 samples.

Results

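The genes described here are 9 transcripts of the simple epithelium, namely the simple keratins Krt7, Krt8, Krt18 and Krt19, the adhesion proteins Cdh1 and Epcam, and the claudins Cldn3, Cldn4 and Cldn7. They were chosen by name out of 5828 genes listed in 4 deposited tables of a spatial transcriptomics study of mouse uterus, and all 9 were found. The tested mice, Ezh2cKO (KO below), carried floxed Ezh2 alleles with a Cre (EZ fl/fl; Prcre/+), and the controls, called WT by the study, carried the same floxed alleles without it (EZ fl/fl). Ezh2 encodes the enzyme that places the repressive histone mark H3K27me3, and the Prcre allele is a Cre knocked into the progesterone receptor gene, which is active in epithelium, stroma and muscle of the uterus. All females were of mixed C57BL/6 and 129SvEv strain, were ovariectomized at postnatal day 71 ± 4 and gave their uteri at day 112 ± 11, with 1 KO and 1 WT female from each of 4 litters. The method was Visium, which catches messenger RNA from a tissue section on an array of barcoded spots and counts each captured molecule once as a unique molecular identifier (UMI). Each spot covers a patch of tissue and can take in RNA of more than 1 cell type. In the deposited tables the spots that the authors assigned to epithelium or to stroma are compared after pooling the 4 animals of each genotype.

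Simple epithelia are single sheets of cells with an apical and a basal face. Krt8 and Krt7 are type II keratins and Krt18 and Krt19 are type I keratins, and 1 of each type must pair to build the intermediate filament that lets the sheet bear strain. Cdh1 (E-cadherin) joins neighbouring cells at adherens junctions, Epcam is a cell surface adhesion protein of simple epithelia, and the claudins are membrane proteins of the tight junction, which seals the space between cells. In the uterus these genes mark the luminal and glandular epithelium, and the sheet's junctions are remodelled when an embryo attaches. Keratins of simple epithelia are also made by mesothelium, the outer lining of the organ.

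The upstream sequences of the 3 claudins are shown because Cldn3 and Cldn4, which are neighbours on chromosome 5, had the lowest ratios of KO over WT epithelium among the 9 genes, whereas Cldn7 had a ratio near 1. Cldn3 lies at chr5:134986214-134987472 on the plus strand and Cldn4 at chr5:134945119-134946934 on the minus strand, with 39279 bases between them (GRCm38, GENCODE). Each line gives the 250 bases before the RefSeq start of the gene, read 5′ to 3′ on the gene's strand from GRCm38.p6. Epcam is added because its window holds both motifs that were searched, CACCTG (an E-box of the kind bound by zinc finger repressors of epithelial genes such as Snai1 and Zeb1; CAGGTG on the other strand) and ACCGGT (the core of the site of Grainyhead-like factors, which reads the same on both strands). Capitals mark these motifs.
Cldn3, chr5:134985964-134986213, plus strand: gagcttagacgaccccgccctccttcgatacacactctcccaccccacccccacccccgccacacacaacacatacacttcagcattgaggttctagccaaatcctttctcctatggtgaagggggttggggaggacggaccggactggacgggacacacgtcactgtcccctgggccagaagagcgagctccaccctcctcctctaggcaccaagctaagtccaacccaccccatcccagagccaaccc
Cldn4, chr5:134946935-134947184, minus strand: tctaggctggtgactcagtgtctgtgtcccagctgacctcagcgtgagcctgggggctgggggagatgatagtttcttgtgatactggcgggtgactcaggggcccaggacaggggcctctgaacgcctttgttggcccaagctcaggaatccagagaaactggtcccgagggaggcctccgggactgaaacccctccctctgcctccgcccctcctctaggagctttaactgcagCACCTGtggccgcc
Cldn7, first of 2 starts, chr11:69964529-69964778, plus strand: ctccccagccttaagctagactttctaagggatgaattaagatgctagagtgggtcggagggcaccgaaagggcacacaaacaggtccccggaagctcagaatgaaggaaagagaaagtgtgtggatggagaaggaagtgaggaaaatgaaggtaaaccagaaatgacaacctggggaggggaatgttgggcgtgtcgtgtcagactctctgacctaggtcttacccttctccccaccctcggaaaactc
Epcam, chr17:87635729-87635978, plus strand: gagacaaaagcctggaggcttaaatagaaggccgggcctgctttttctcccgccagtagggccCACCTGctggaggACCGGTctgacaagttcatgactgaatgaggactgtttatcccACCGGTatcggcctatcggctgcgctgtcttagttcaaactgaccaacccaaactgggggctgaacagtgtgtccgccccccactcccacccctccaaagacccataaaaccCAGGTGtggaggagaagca

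Promoter windows were matched for 7 of the 9 genes. CACCTG was found in either orientation upstream of a RefSeq start in 6 of these 7 genes, or in 6 of their 8 windows since Cldn7 has 2 starts. Of 32841 RefSeq windows of the same length, 17.2% hold it. By the GENCODE positions, the matches of Krt7 and Krt8 lie within the span of the gene, as do those before the second start of Cldn7. The E-box lay 14 bases before the start in Cldn4, 187 and 19 bases before it in Epcam, and 97 and 57 bases before the second start of Cldn7. The 250 bases of Cldn3 and those of the first start of Cldn7 did not hold these letters. ACCGGT was found upstream of Epcam alone, in 2 copies, against 1.86% of all windows. TATAAA, the TATA box, was also searched and was found in 0 of the 8 windows, against 12.4% of all windows. The E-boxes of Krt7 and Krt18, a keratin of each type, are shown with 12 bases on each side.
Krt7, chr15:101412347-101412376, plus strand: ccgccctgtcccCACCTGtgtgcgctcagc
Krt18, chr15:102027990-102028019, plus strand: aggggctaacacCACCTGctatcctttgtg
A match is a description of the letters and says nothing of binding, which was not measured here.

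Over the genes listed for each pool, the epithelium pools held 1552958 UMIs in KO and 1428541 in WT, and the stroma pools 947663 in KO and 416747 in WT. Levels below are UMIs scaled to the depth of the WT stroma pool, the thinnest one. On that scale the KO epithelium pool was 2.75 times, the WT epithelium pool 2.54 times and the KO stroma pool 2.01 times as deep. There is 1 pooled value per gene and group, so no spread between animals can be given. Intervals are 95% exact counting intervals and cover counting error only. A gene counts as called when its adjusted p-value in the deposited tables is under 0.05, and the authors' test is not given in the sources used here. Ezh2 itself was not analysed here, so the deletion was not checked at its own transcript.

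All 7 members with values in the 4 pools stood in the same order, with both epithelium pools above KO stroma and KO stroma above WT stroma. Krt8 had 907 UMIs in KO and 924 in WT epithelium, and 235 in KO and 44 in WT stroma, which are levels of 329, 364, 117 and 44 on the common scale. Krt18 had 824 UMIs in KO and 941 in WT epithelium, and 226 in KO and 51 in WT stroma, or levels of 299, 370, 112 and 51. Krt19 had 1002, 815, 213 and 36 UMIs in the same order of pools, or levels of 364, 321, 106 and 36. Between the epithelium pools the keratins lay close together, with Krt18 lower and Krt19 higher in KO, and the stroma pools stood well apart from them and from each other.

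The adhesion genes followed the same order. Cdh1 had levels of 131 in KO and 115 in WT epithelium, and of 53.7 in KO and 24 in WT stroma (360, 292, 108 and 24 UMIs). Epcam had levels of 227, 261, 107 and 45 in the same order of pools (625, 664, 216 and 45 UMIs). Epcam thus had a level in KO stroma that was 47.3% of that in KO epithelium, the highest such share of any member, against 17.2% in WT uterus.

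Among the claudins, Cldn3 had levels of 285 in KO and 439 in WT epithelium, and of 73.6 in KO and 51 in WT stroma (786, 1117, 148 and 51 UMIs). Cldn7 had levels of 142, 144, 48.2 and 26 in the same pools (392, 365, 97 and 26 UMIs). Cldn3 was the member whose epithelium pools stood farthest apart, whereas the Cldn7 values of KO and WT epithelium differed by less than their counting error. The members of low level were Cldn4, with 83 UMIs in KO epithelium and 110 in WT epithelium, and Krt7, with 190 UMIs in KO epithelium, 161 in WT epithelium and 41 in KO stroma. Cldn4 in stroma and Krt7 in WT stroma were not analysed here.

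**Figure D1:**
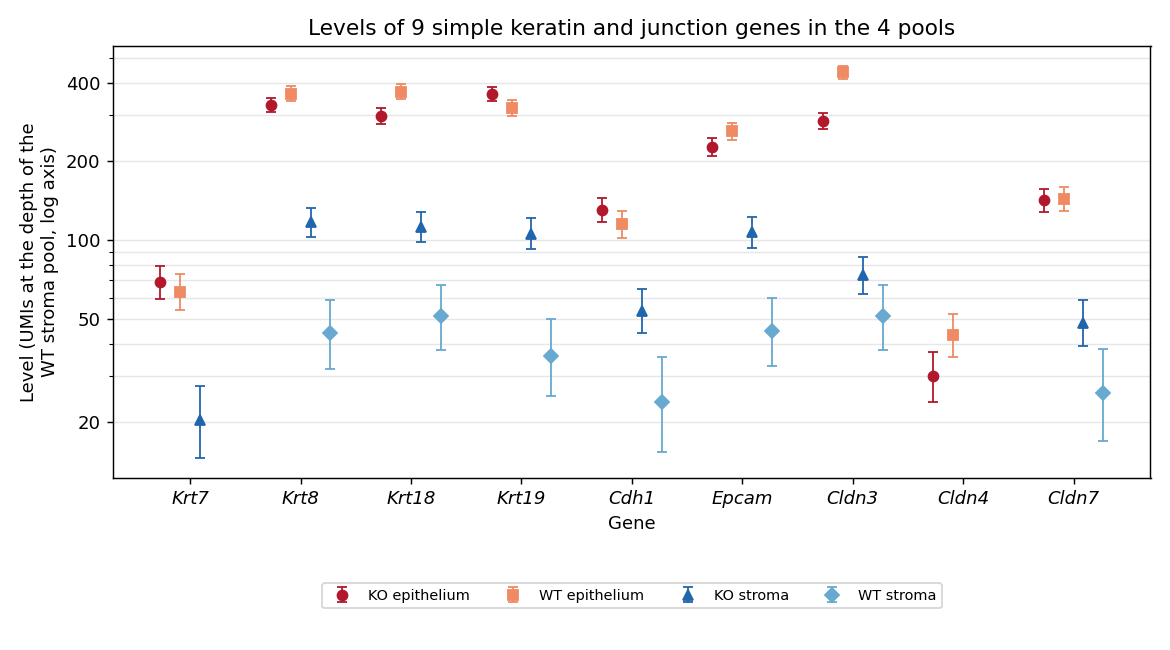
Level of each of the 9 genes (horizontal axis) in UMIs at the depth of the WT stroma pool (vertical axis, log scale), with 1 point per pool of 4 animals and bars for the 95% exact Poisson counting interval. Both epithelium pools lie above KO stroma for every gene with a stroma value, and KO stroma lies above WT stroma, as for Krt8 with 117 and 44.

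These genes define epithelium, and all 9 had UMIs in both epithelium pools, so the values are set out here as a description of the labelled spots. A gene is listed in a table when its average is above 1 in at least 1 of both groups. In KO uterus all 8 listed members were called higher in epithelium than in stroma, where 5.43% of 2744 listed genes were. Cldn3 was 3.88-fold (3.25 to 4.66), Krt19 3.44-fold (2.96 to 4.00), Krt7 3.38-fold (2.40 to 4.87) and Cldn7 2.95-fold (2.36 to 3.73) higher. Krt8 was 2.82-fold (2.44 to 3.27), Krt18 2.66-fold (2.30 to 3.10), Cdh1 2.43-fold (1.96 to 3.05) and Epcam 2.11-fold (1.81 to 2.48) higher. Neighbours in this order have overlapping intervals, whereas Epcam lay below Cldn3 and Krt19. Of the 8 listed genes 7 had an average above 1 in both KO pools, and Krt7 had it in KO epithelium alone. Adjusted p-values in the authors' deposited table lay between 6.69e-07 for Cldn3 and 0.00459 for Epcam.

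In WT uterus all 7 listed members were called higher in epithelium than in stroma, where 13.1% of 1769 listed genes were. All 7 met the listing average through WT epithelium, where they are high, and 0 of them in WT stroma, so they had to differ and their count is no support for the label of the spots. Krt19 was 8.91-fold higher (6.38 to 12.8), Cldn3 8.62-fold (6.51 to 11.6), Krt8 8.26-fold (6.10 to 11.4) and Krt18 7.26-fold (5.47 to 9.82). Epcam was 5.80-fold (4.29 to 8.04), Cldn7 5.52-fold (3.71 to 8.57) and Cdh1 4.79-fold (3.15 to 7.59) higher. Ratios were larger than in KO uterus for every one of these 7 genes, and neighbouring ratios in this order have overlapping intervals. The authors' deposited table gives adjusted p-values between 2.37e-13 for Krt8 and 1.79e-08 for Cdh1. If these genes guided the naming of spots, their compartment difference is no finding, and the way spots were named is not given in the sources used here.

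The first genotype question is whether the transcripts of the epithelial sheet differ in the epithelium when Ezh2 is deleted. None of the 9 members was called between KO and WT epithelium, and the authors' deposited table gives each of them 1 as adjusted p, where 0.120% of 5811 listed genes were called. Unadjusted p-values were not analysed here. The median log2 ratio of the 9 genes was -0.14, beside -0.10 over all listed genes, so the members as a group stood close to the median gene. Their values were not alike. Cldn3 had 786 UMIs in KO epithelium and 1117 in WT epithelium, a ratio of 0.649 (0.592 to 0.712). Cldn4 had 83 and 110 UMIs in these pools, a ratio of 0.696 (0.517 to 0.934). Cldn7, the third claudin, had a ratio of 0.991 (0.857 to 1.15). In a pooled measure, fewer epithelial cells in the spots and less RNA per cell cannot be told apart.

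The keratins did not move as a block either. Krt18 had a ratio of KO over WT epithelium of 0.808 (0.735 to 0.888) and its partner Krt8 one of 0.906 (0.826 to 0.994). The other keratins had ratios above 1, with 1.13 (1.03 to 1.25) for Krt19 and 1.09 (0.878 to 1.35) for Krt7. Cdh1 had a ratio of 1.14 (0.972 to 1.33) and Epcam one of 0.869 (0.777 to 0.970). Relative to the median gene of the table, the counting interval lay below 1 for Cldn3 (0.698) and Krt18 (0.869), above 1 for Krt19 (1.22) and Cdh1 (1.22), and included 1 for the other 5. Of all 5811 listed genes, 4.08% had a lower ratio than Cldn3. Among the 176 genes with at least as many UMIs as Cldn3 over both pools, 6 had a lower ratio. These counting intervals hold no spread between animals, and by the authors' test 0 of the 9 differences was called.

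The second genotype question concerns the stroma spots, in which these transcripts are low. None of the 4 members listed in that table was called, where 1.51% of 1191 listed genes were called. The authors' deposited table gives an adjusted p of 0.107 for Krt8, 0.112 for Krt19, 0.193 for Epcam and 0.419 for Krt18. All 7 members with a value in both stroma pools were nevertheless higher in KO stroma, with counting intervals above 1. Summed over these 7 genes, KO stroma had 1243 UMIs and WT stroma 277, a ratio of levels of 2.23 (1.96 to 2.55). The median log2 ratio was 1.33 for the 4 listed members and 1.16 for all 7, beside -0.05 over all listed genes. Krt8, Krt18, Krt19 and Epcam met the listing average through KO stroma alone, where they are high. Their count and the median of these 4 genes are therefore no support for a difference. Sums for Cdh1, Cldn3 and Cldn7 come from the compartment tables, and the authors' table gives no p-value for them in this comparison.

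The 7 genes differed in size within the stroma. Krt19 had the highest ratio of KO over WT stroma at 2.94 (2.06 to 4.31), followed by Krt8 at 2.65 (1.92 to 3.75), Epcam at 2.39 (1.72 to 3.37), Cdh1 at 2.24 (1.43 to 3.64) and Krt18 at 2.20 (1.62 to 3.05). The claudins had the lowest ratios, 1.85 (1.19 to 2.98) for Cldn7 and 1.44 (1.04 to 2.02) for Cldn3. Intervals of neighbours in this order overlap, since the WT stroma pool held 24 to 51 UMIs per gene. Other genes of the compartments moved in these pools as well. Of the 231 genes called higher in epithelium than in stroma of WT uterus, the 7 members among them, 229 had UMIs in all 4 pools. These had a median ratio of KO over WT stroma of 1.47, and 213 of the 229 were higher in KO stroma. That choice favours genes with a low value in WT stroma. Over the 1191 genes listed between the stroma pools, 45.7% were higher in KO. In the same stroma pools, all 8 listed smooth muscle genes had lower values in KO, where 54.3% of 1191 listed genes were lower. Of the 8 genes, Myh11, Acta2, Tagln and Cald1 were called, where 1.51% of listed genes were. The summed level of the 8 genes was 759 in KO stroma and 1638 in WT stroma. Of them, 4 met the listing average through WT stroma alone, so these counts are no support for a difference. Among 8 mesothelium markers, Wt1 was the one listed, at levels of 94.4 in KO stroma and 103 in WT stroma. It also had levels of 67.5 in KO and 62.2 in WT epithelium, and 1 gene is no measure of the mesothelium in a pool. The part of these other cells and of spot naming in the keratin values was not tested.

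**Figure D2:**
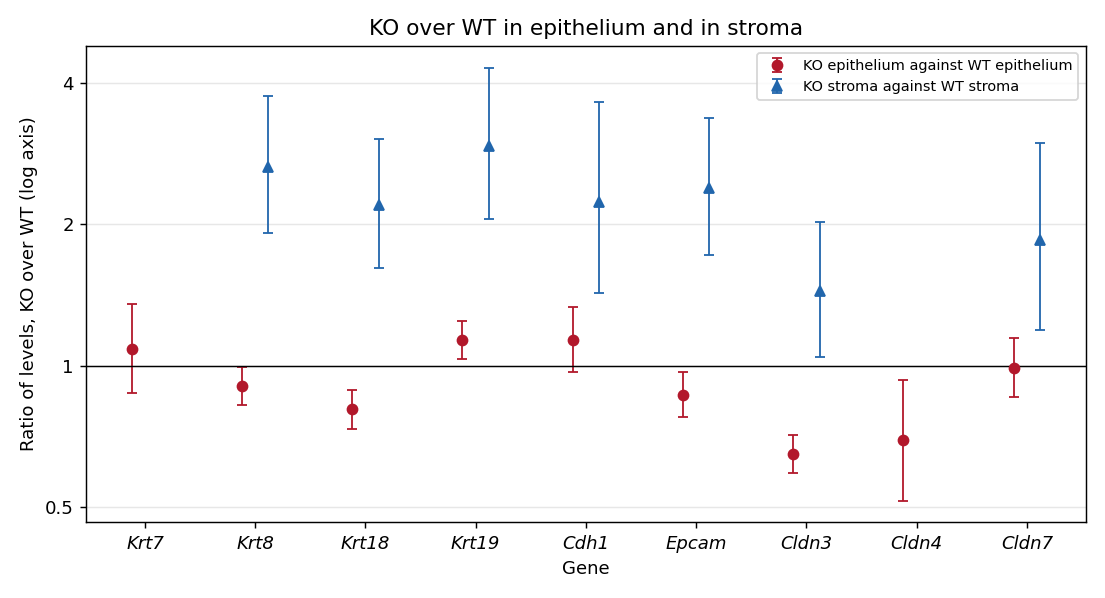
Ratio of levels, KO over WT (vertical axis, log scale), for each gene in epithelium and in stroma, 1 value per gene from pools of 4 animals, with 95% exact counting intervals. Epithelium values lie between 0.649 for Cldn3 and 1.14 for Cdh1, and stroma values between 1.44 for Cldn3 and 2.94 for Krt19.

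Both genotype comparisons combine into a smaller contrast between compartments in KO than in WT uterus. The 7 members summed were 2.88-fold higher in epithelium in KO (2.70 to 3.06) and 7.27-fold in WT (6.44 to 8.23). The KO contrast was thus 0.396 times the WT contrast (95% log-normal counting interval 0.345 to 0.453). Each of the 7 members had the smaller contrast in KO, between 0.341 times the WT contrast for Krt8 (0.244 to 0.477) and 0.534 times for Cldn7 (0.339 to 0.843). Across 1755 genes with UMIs in all 4 pools, the median of this ratio was 0.984, and 929 of them had a ratio below 1. Among the 229 of 231 genes called higher in WT epithelium that had UMIs in all 4 pools, 226 had a smaller contrast in KO, with a median of 0.576, so most genes of that kind had the same direction as the keratins and junction genes. Choosing genes by their WT contrast also favours a larger value there. The summed level of 16 endometrial stroma genes was 4079 in KO and 2981 in WT epithelium, and 7398 in KO and 8134 in WT stroma. Dcn, a matrix proteoglycan, made up much of this sum, with levels of 1504 in KO and 1175 in WT epithelium, and of 3774 in KO and 5135 in WT stroma. Without Dcn the sum was higher in KO in both compartments, at 2575 in KO and 1806 in WT epithelium, and at 3624 in KO and 2999 in WT stroma. Of the 16 genes 11 had a higher level in KO stroma, where 45.7% of 1191 listed genes were higher. Stroma over epithelium, the 16 genes summed were 1.81-fold in KO and 2.73-fold in WT, and without Dcn 1.41-fold in KO and 1.66-fold in WT. The lowest of these genes had 61 UMIs in a pool. Their part in the contrast of the members was not tested, and no test of the difference between genotypes across animals could be run.

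**Figure D3:**
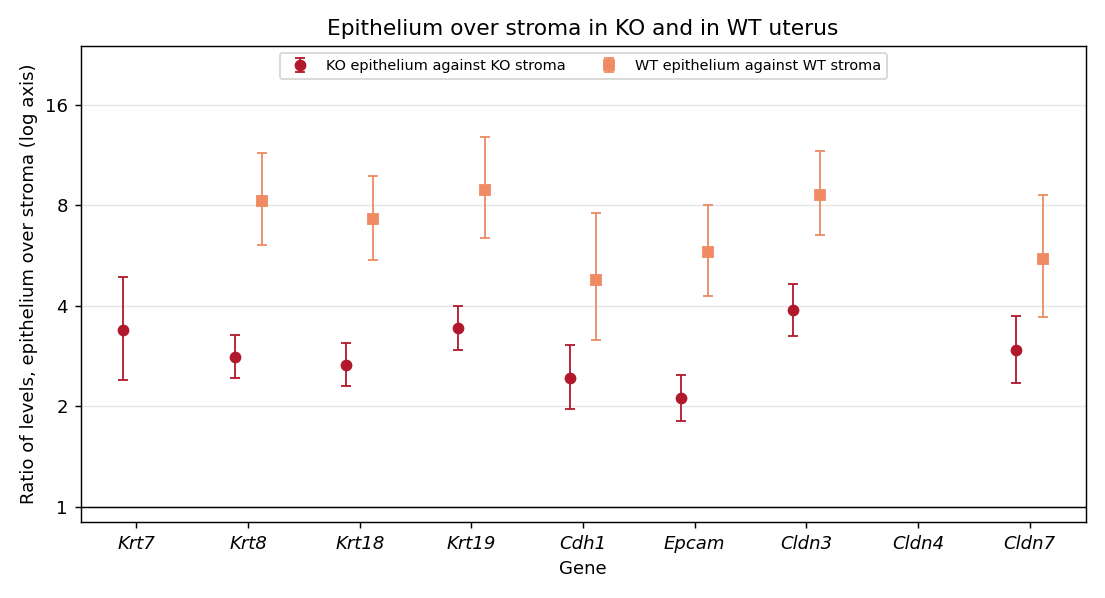
Ratio of levels, epithelium over stroma (vertical axis, log scale), for each gene in KO and in WT uterus, with 95% exact counting intervals. The KO values run from 2.11 for Epcam to 3.88 for Cldn3 and lie below the WT values, which run from 4.79 for Cdh1 to 8.91 for Krt19.

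Dividing each gene by the sum of the 7 members takes the depth of a pool and the summed level of the 7 genes out of the comparison. The share of Cldn3 was 16.1% (15.0 to 17.1) in KO epithelium and 21.8% (20.7 to 23.0) in WT epithelium. In stroma the share of Cldn3 was 11.9% (10.2 to 13.8) in KO and 18.4% (14.0 to 23.5) in WT. The claudin's share was thus lower in KO in both compartments with counting intervals that do not overlap, although both compartments come from the same 8 uteri. These intervals hold no spread between animals. In stroma their ends lie close together, at 13.8 in KO and 14.0 in WT, and the WT share rests on 51 UMIs. Krt19 went the other way in epithelium, with 20.5% (19.3 to 21.6) in KO and 15.9% (14.9 to 17.0) in WT, and in stroma it had 17.1% (15.1 to 19.3) in KO and 13.0% (9.27 to 17.5) in WT, with overlapping intervals. Cdh1 made up 7.35% (6.64 to 8.12) in KO epithelium and 5.71% (5.09 to 6.38) in WT epithelium, but 8.69% (7.18 to 10.4) in KO stroma and 8.66% (5.63 to 12.6) in WT stroma. For Krt8, Krt18, Epcam and Cldn7 the intervals of KO and WT overlapped in both compartments. A change in 1 share moves the others, so these shares are not independent of each other.

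The same UMIs can be set out as ratios of genes of like function, which restates the shares gene by gene and adds no further evidence. Cldn3 had 2.01 UMIs per UMI of Cldn7 (1.77 to 2.27) in KO epithelium and 3.06 (2.72 to 3.45) in WT epithelium. In stroma that ratio was 1.53 (1.17 to 1.99) in KO and 1.96 (1.20 to 3.28) in WT, with overlapping intervals. The filament partners Krt8 and Krt18 were near 1 to 1 in both epithelium pools, with 1.10 Krt8 UMIs per Krt18 UMI (1.00 to 1.21) in KO epithelium and 0.982 (0.896 to 1.08) in WT epithelium. Between the type I keratins, Krt19 had 1.22 UMIs per UMI of Krt18 (1.11 to 1.34) in KO epithelium and 0.866 (0.788 to 0.952) in WT epithelium. These are ratios of UMIs without scaling for length, so only their difference between pools is described.

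**Figure D4:**
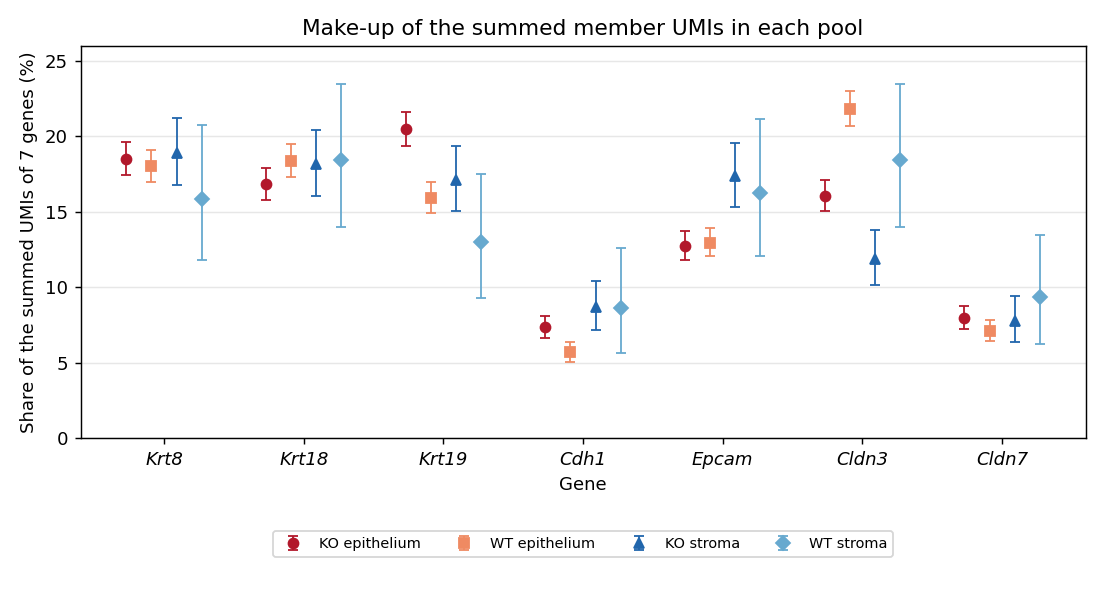
Share of each of 7 genes in their summed UMIs (vertical axis, percent) in each pool, with 95% exact Clopper-Pearson intervals. The share of Cldn3 is lower in KO than in WT in both compartments (16.1% and 21.8% in epithelium), and that of Krt19 is higher in KO epithelium (20.5% and 15.9%).

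Other junction and keratin genes give the setting of these members. Of 29 further tight junction genes 19 were listed between KO and WT epithelium, where 0 were called, 5 were higher and 14 lower, with a median log2 ratio of -0.21. Over all 5811 genes listed there, 64.8% were lower in KO, 0.120% were called and the median was -0.10, and the counts of the lists below are to be read beside these. Cldn10, a claudin that forms ion-selective pores, was called higher in epithelium than in stroma in both genotypes, 2.88-fold (2.48 to 3.37) in KO and 5.57-fold (4.07 to 7.81) in WT. Cldn5, the claudin of endothelium, was called higher in stroma in both, 2.47-fold (1.91 to 3.22) in KO and 4.59-fold (3.42 to 6.21) in WT. F11r, an adhesion molecule of tight junctions, was 2.12-fold (1.57 to 2.89) and Lsr, which marks the corners where 3 cells meet, 2.08-fold (1.53 to 2.86) higher in KO epithelium than in KO stroma. Of 21 adherens junction and desmosome genes 13 were listed between KO and WT epithelium with 0 called and a median of -0.21. The desmosome plaque gene Dsp was called higher in epithelium than in stroma, 2.09-fold (1.60 to 2.74) in KO and 6.05-fold (3.65 to 10.7) in WT, as was Perp, a desmosome membrane protein, at 3.22-fold (2.33 to 4.54) and 7.40-fold (3.93 to 15.7). Jup, which encodes plakoglobin, had a ratio of 1.87 (1.34 to 2.65) between WT epithelium and WT stroma and was called. In WT stroma Dsp had 16 UMIs, Perp 10 and Jup 44. Of the adherens junction and desmosome genes, 3 of 5 listed in WT and 5 of 9 in KO met the listing average through epithelium alone. Of the tight junction genes, 2 of 4 in WT and 2 of 8 in KO did so, and 1 in each genotype through stroma alone. Calls of such genes are no support for a difference. Among 11 other keratins 1 was listed, Krt10, a keratin of differentiating epidermis, which had 48 UMIs in KO epithelium and 64 in WT epithelium, a ratio of 0.692 (0.466 to 1.02) with no call. Krt10 met the listing average through WT epithelium alone, so its lower value in KO is no support for a difference. Of 12 basal and squamous markers 0 were listed, and an average of 1 stands for 61.7 UMIs in KO epithelium and 56.9 in WT epithelium, so levels under these were not analysed here.

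Surface proteins and regulators of the epithelial state were counted in the same way. All 11 listed genes of this list of 23 were called higher in KO epithelium than in KO stroma (median log2 ratio 1.31) and all 7 listed in WT were called higher in WT epithelium (2.69). Of these, 8 of 11 in KO and 6 of 7 in WT met the listing average through epithelium alone, so these counts and medians are no support for a difference. St14, a membrane serine protease that in mouse acts on epithelial barriers, was 2.84-fold (2.03 to 4.05) higher in epithelium than in stroma in KO and 15.2-fold (6.40 to 47.3) in WT. The WT value rests on 193 UMIs in epithelium and 5 in stroma, and the KO value on 171 and 44. Between KO and WT epithelium 0 of 16 listed members were called and 15 had lower values in KO (median -0.25), where 64.8% of all listed genes were lower. Mesenchymal regulators and cadherins had 0 of 6 called there, with 5 higher in KO (median 0.49), where 35.2% of all listed genes were higher. Vim, the intermediate filament of mesenchymal cells, was called higher in stroma than in epithelium, 1.86-fold (1.65 to 2.10) in KO and 4.28-fold (3.62 to 5.07) in WT. Zeb2, a repressor of Cdh1, was also called higher in stroma, 2.07-fold (1.51 to 2.86) in KO and 2.72-fold (1.95 to 3.80) in WT. Of this list, 3 of 6 genes listed in KO and 1 of 4 in WT met the listing average through stroma alone. Zeb2 did so in both genotypes, so its calls are no support for a difference.

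The genes most like the members over the 4 pools were looked up among 1719 other genes with at least 10 UMIs in every pool, by the Euclidean distance between 4 centred log2 levels. Nearest to the 7 summed members were Ptprf, a receptor phosphatase (distance 0.10), the tetraspanin Tspan8 (0.15), Perp (0.16), the surface protein Plet1 (0.19) and Kctd1 (0.21). Ptprf had 442 UMIs in KO and 457 in WT epithelium, and 115 in KO and 27 in WT stroma. For single members the nearest gene was Plet1 for Krt8, Ptprf for Krt18, Dgat2 for Krt19, Sdc4 for Cdh1, Dsp for Epcam (0.07) and Pla2g4a for Cldn7 (0.04). Nearest to Cldn3 was Fxyd4, a regulator of the sodium pump, at 794, 995, 150 and 52 UMIs in the same order of pools (0.16). Such likeness rests on 4 pools and is a description.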

How the data were processed

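Uterine cryosections of 10 µm from 4 KO and 4 WT mice were profiled on Visium slides, per the labels' protocols. GRCm38 is the build in the submitters' processing notes. The sources used here name no aligner, no test and no way of naming spots. Per the file headers, each of the 4 deposited tables holds a normalized average per group (a score set within each table), a log2 fold change and an adjusted p-value (FDR), with animals pooled.

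The pooled UMIs behind the deposited averages were recovered by solving, by least squares, the group size factors that give the deposited log2 values, which carry a pseudocount of 1, and 100% of sums were within 0.01 of a whole number. Sums of a pool differed between tables for 0 genes. Every listed gene had an average above 1 in at least 1 group. Ratios use the recovered sums without a pseudocount, scaled by these size factors, with 95% exact Clopper-Pearson intervals. No p-value was computed, and the calculation was tested on simulated data. The authors' fit covers the whole of each table. The alternatives were an adjusted p of 0.01, a minimum absolute log2 fold of 1, dropping the 25% of genes with the lowest level, other scalings, and other ways to sum the members.

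The members and 12 gene lists were chosen with earlier results of these data known. Named are all members, up to 6 called genes of each junction, keratin and regulator list, up to 3 of each other list, taken by size of the ratio, and the genes nearest in pattern. Cald1, Wt1, Cd74, Krt10 and Cxcl15 were named outside this rule, after their values were seen. Gene positions are from GENCODE M21 (5826 of 5828 IDs matched) and promoter windows from RefSeq. Analyses used Python 3.11.15, NumPy 2.4.6, SciPy 1.17.1 and pandas 2.3.3.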

Additional observations from a re-analysis of the deposited data

How the results depend on the processing

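Counts of called members kept within 1.5 times under every alternative: with an adjusted p of 0.01 or a minimum absolute log2 fold of 1 they were 8 in KO and 7 in WT between compartments, without the lowest 25% of genes by level 7 in KO and 6 in WT, and 0 between genotypes throughout. Centring on the median gene moved the log2 ratio of the 7 summed members between KO and WT epithelium from -0.18 to -0.0755, outside its counting interval, by its own construction. Of 31 single ratios of members, centring moved 0 outside the counting interval and turned the sign of 1, that of Cldn7 in epithelium, to 0.09. Scaling by summed UMIs moved 0 of 31 outside the interval, and the authors' deposited log2 values 0 of 28. The KO over WT ratio of compartment contrasts, 0.396, ran from 0.392 to 0.416 over the other scalings and sums. No paired analysis was possible because each deposited value already pools 4 animals, and for the same reason no replicate could be left out. Depth limits the WT stroma pool most, with 24 to 51 UMIs per member.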

Other observations

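Of 13 gland and lumen markers that are no members, 5 were listed between KO epithelium and KO stroma. Of these, 4 were called higher in epithelium, where 5.43% of 2744 listed genes were. Of the 5 genes, 3 met the listing average through epithelium alone, so this count is no support for a difference. Calb1, which binds calcium in luminal cells, was 9.06-fold (5.74 to 15.1) higher in KO epithelium than in KO stroma, Wnt7a, a ligand of the Wnt pathway, 4.99-fold (3.51 to 7.29) and Wfdc2, a secreted protease inhibitor, 3.95-fold (3.64 to 4.29). The fifth, the gland gene Cxcl15, was not called and had 131 UMIs in KO epithelium and 132 in KO stroma, a ratio of 0.725 (0.565 to 0.930). The summed level of the leukocyte markers Cd74, Jchain and Lyz2 was 970 in KO stroma and 1448 in WT stroma. That of the endothelium markers Cdh5, Cldn5 and Egfl7 was 278 in KO stroma and 356 in WT stroma. Of each list, 0 of 3 listed members were called, where 1.51% of 1191 listed genes were. In epithelium the same leukocyte genes had 562 in KO and 442 in WT, and the endothelium genes 135 in KO and 114 in WT. There 0 of 4 listed members of each list were called, where 0.120% of 5811 listed genes were.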
